A study of Mus musculus with 9 samples.

Results

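The genes described here encode collagen chains, laminin chains and a small set of other matrix proteins, namely fibronectin (Fn1), the nidogens (Nid1, Nid2), perlecan (Hspg2), SPARC (Sparc), decorin (Dcn), biglycan (Bgn) and lumican (Lum). They were chosen by symbol alone, as every gene named Col, digits, a, digits, or Lama, Lamb or Lamc with a digit, plus those 8 names, and the rule uses no expression value. The rule found 57 genes among the 19072 gene identifiers listed in any library: 39 collagen chains, 10 laminin chains and all 8 of the named glycoproteins and proteoglycans. Single libraries listed between 40 and 51 of the 57. Expression was measured by RNA sequencing of 4T1-TGL cells, which derive from the mammary carcinoma line 4T1 of BALB/c mice, in 9 libraries. Of these, 3 came from cells of wild-type genotype (Ctrl) and 3 each came from the Malat1 knockout lines KO1 and KO2, so that the lines share the parental cells and the DMEM/F12 medium and differ in the label by the loss of Malat1, a long noncoding RNA of the nucleus. The labels do not say whether a knockout line is 1 clone, nor which part of the gene was removed. The design text numbers the lines KO#3 and KO#43, and it names the sixth and ninth samples differently from their titles, which were followed here. Nothing says that the 3 libraries of a group were grown apart, so each p-value weighs a difference against the spread between these libraries alone, which may be technical.

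The extracellular matrix is the protein mesh that cells secrete, bind and crawl on. Collagens are secreted rods of alpha chains wound around each other: fibrillar types such as type I form cables, type IV forms the sheet of the basement membrane, and type VI forms beaded filaments that join the sheet to the cables. Laminins are cross-shaped assemblies of an alpha, a beta and a gamma chain that start basement membranes and bind integrins, while fibronectin, nidogen and perlecan link these networks to each other and to cells. In a mammary tumour this matrix comes both from carcinoma cells and from fibroblasts, and cells that have left the epithelial state are known for high fibronectin.

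Malat1 itself checked the labels. Its level was 74.1, 58.1 and 69.5 FPKM (sequenced fragments scaled by transcript length and library size) in the Ctrl libraries, 0.58, 0.54 and 0.39 in KO1 and 16.5, 22.2 and 13.4 in KO2. Both lines lay below every control library, and KO2 kept far more of the transcript than KO1. Library totals ran from 30655924 to 35406395 expected counts, and the deposited tables list a gene only from 0.01 FPKM, so a gene that is not listed counts as 0 here. Of the epithelial markers, Krt8 and Krt18 were high in every library while the defining Epcam and Cdh1 were nearly absent, with 0 to 21 and 0 to 11 counts. Krt7 was at a mean of 31.6 FPKM in Ctrl and 0.477 in KO2, and Krt19, Cldn4 and Cldn7 had at most 19 counts. Of the fibroblast markers, Pdgfra had 4133 to 9867 counts, but Fap had 0 to 5, Lum 0 or 1, and Thy1 was not listed in any library.

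KO2 replicate 2 stood apart in genes that matter here. It had 42 genes with at least 15 counts that had at most 2 in each of the other KO2 libraries, against 4 to 12 such genes in each of the other 8 libraries, and the matrix genes Col1a2, Col3a1 and Col6a3 were among the 42. In the same library, 7 lung and blood genes picked after their values were seen summed to 30.7 FPKM, against 0.64 at most in any other (Hba-a2 had 121 counts, Scgb1a1 82 and Sftpb 55), and the endothelial genes Cdh5 and Kdr had 34 and 19 counts. Results that lean on this library are given with and without it below, and the part of these other genes in them was not tested.

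Of the 57 genes, 36 passed the filter on low counts and were tested, among them 22 collagen chains, 8 laminin chains and 6 of the others. The other 21 were too low to test: Col10a1, Col13a1, Col1a2, Col22a1, Col23a1, Col27a1, Col28a1, Col2a1, Col3a1, Col4a3, Col4a4, Col5a2, Col6a4, Col6a5, Col8a2, Col9a1, Col9a2, Lama2, Lamc3, Lum and Nid2. The highest transcripts were those of fibronectin, SPARC and basement membrane chains, while those of type I and type III collagen were near 0. In Ctrl, 4 of the 57 genes had a mean of at least 100 FPKM, 11 lay between 10 and 100, 9 between 1 and 10, 25 below 1, and 8 were not listed. Fn1 led with 257 ± 35.2 FPKM (SD, n = 3), rank 225 of all genes, followed by Sparc with 151 ± 7.93, Lamb1 with 130 ± 17.8, Lama5 with 109 ± 10.2, Col4a1 with 89.9 ± 1.20 and Lamc1 with 84.6 ± 8.48. Sparc and Lamb1, Lamb1 and Lama5, and Col4a1 and Lamc1 overlapped between libraries and cannot be ordered, while Fn1 lay above Sparc in every control library. These 6 genes carried 71.2% ± 0.736 of the summed matrix FPKM in Ctrl, 69.1% ± 0.352 in KO1 and 67.4% ± 0.499 in KO2 (SD, n = 3). All 57 together made up 0.262% ± 0.0184 of the FPKM of all genes in Ctrl, 0.327% ± 0.0088 in KO1 and 0.222% ± 0.0115 in KO2 (SD, n = 3), with no overlap between the groups.

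**Figure D1:**
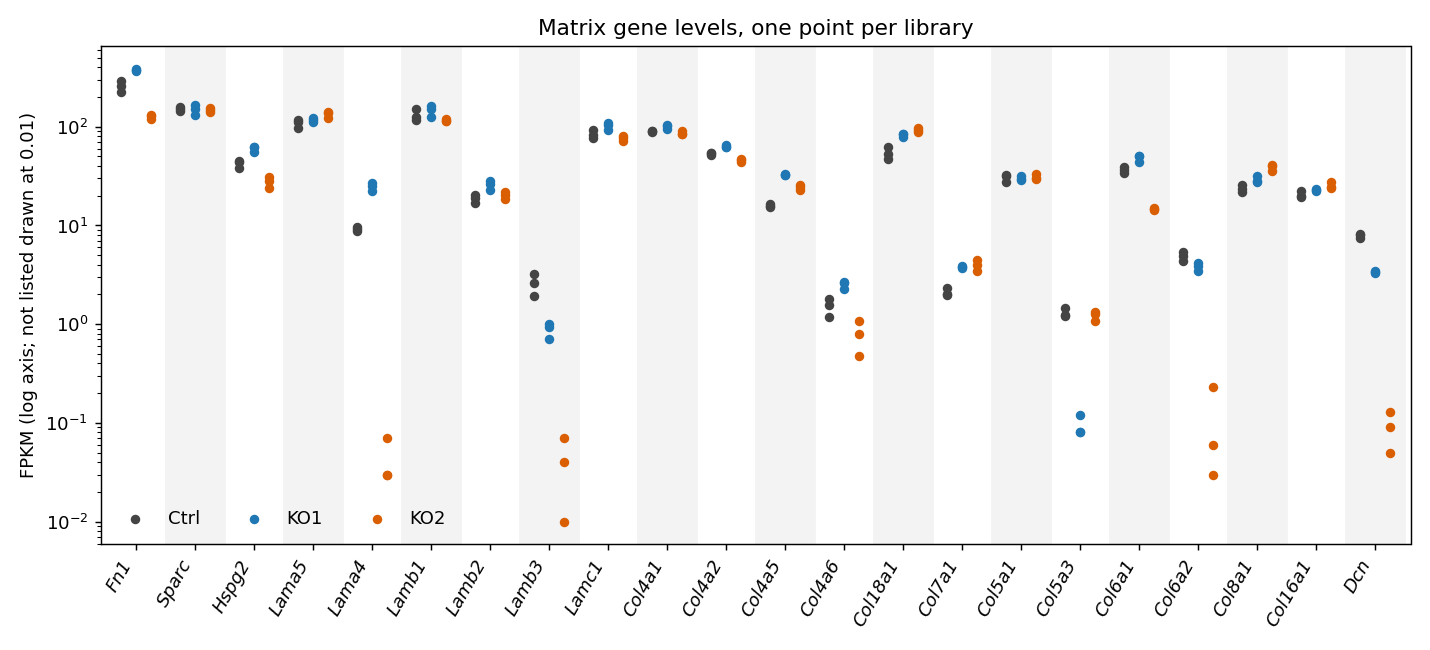
Levels of 22 matrix genes in FPKM on a log axis, 1 point per library (grey Ctrl, blue KO1, orange KO2; a gene not listed in a library is drawn at 0.01). Lama4, Lamb3, Col6a2 and Dcn drop by more than an order of magnitude in KO2, Col5a3 does so in KO1, and Fn1 is highest in KO1 and lowest in KO2.

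Matrix genes passed the test in both lines. In KO1 against Ctrl, 15 of the 36 tested genes rose and 5 fell (edgeR adjusted p under 0.05), while 15.6% of all tested genes rose and 14.9% fell, together 30.5%. The median log2 fold change of the 36 was 0.22, against -0.00 over all 13682 tested genes. In KO2 against Ctrl, 7 rose and 13 fell (19.4% and 36.1%), where 24.6% of all genes rose and 29.5% fell, together 54.1%. The number called in KO2 in either direction thus lay near the share of all genes. The median in KO2 was -0.04 against -0.03. Without KO2 replicate 2, 8 rose and 12 fell, in a fit that chose its tested genes anew and could include genes outside the 36. The lines shared their controls, so their calls are given side by side only. Col18a1, Col4a5, Col7a1 and Col8a1 rose in both, Col12a1, Col1a1, Dcn and Lamb3 fell in both, and Col4a6, Col6a1, Fn1, Hspg2 and Lama4 rose in KO1 and fell in KO2. Col6a3, among the 15 that rose in KO1, reached 10 counts in every library of KO1 alone. Col12a1 and Col1a1 did so in Ctrl alone. Each was highest in that group, so the filter on low counts favoured the direction in which it was called. Col15a1, Col6a2, Dcn, Lama3, Lama4 and Lamb3, called lower in KO2, reached 10 counts in every library of Ctrl and KO1 alone. Col20a1, called higher in KO1, did so in KO1 and KO2 alone. For these genes too the filter could favour the direction called.

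**Figure D2:**
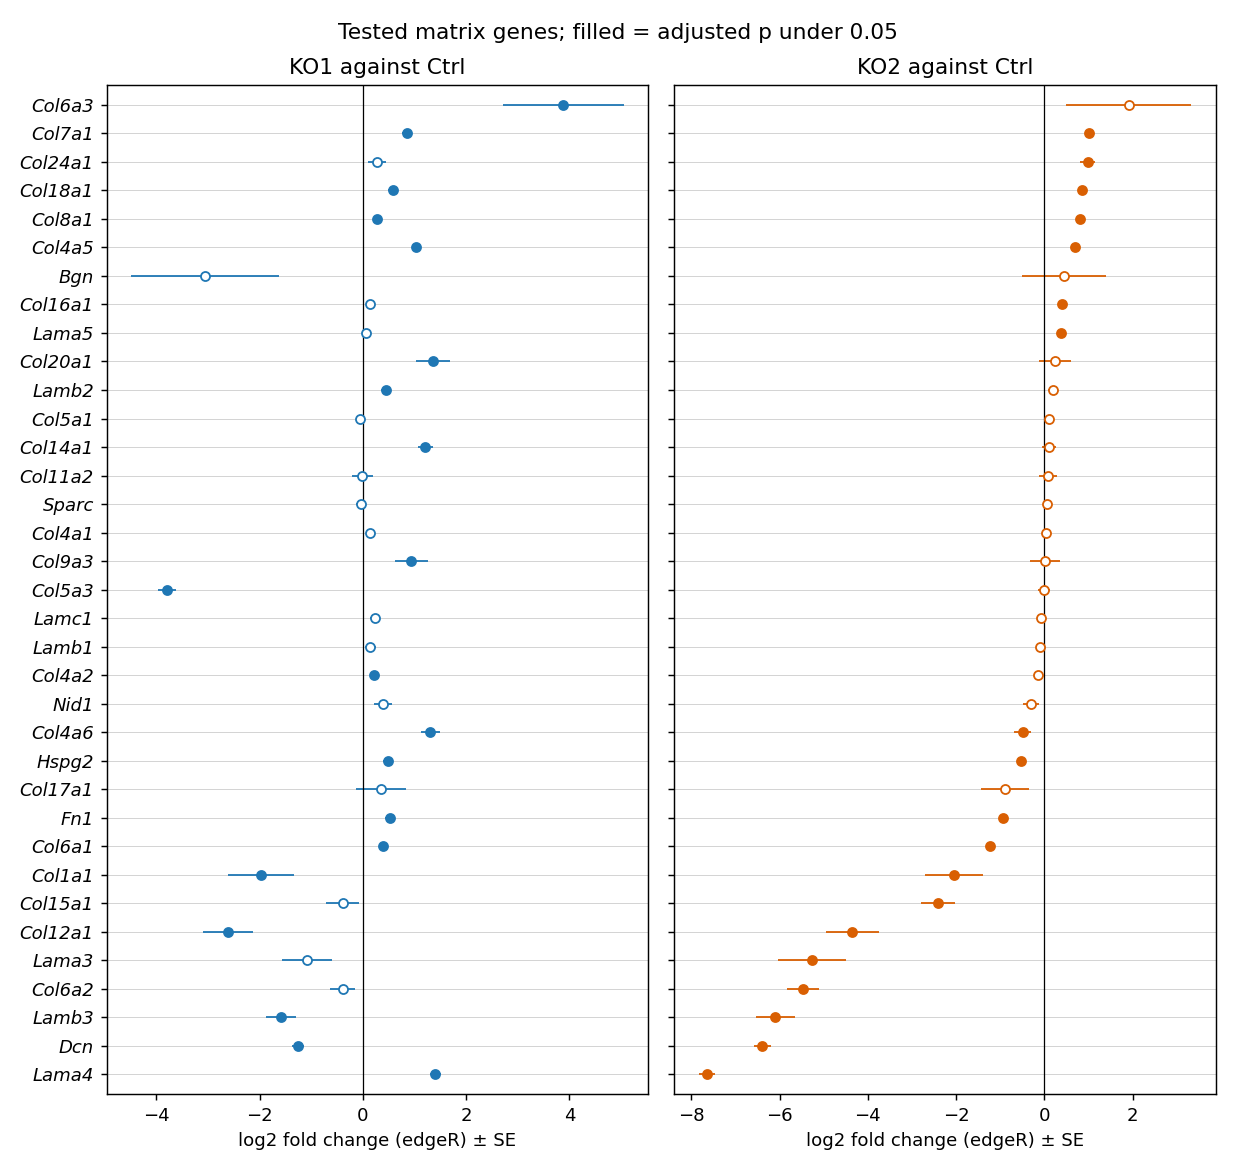
The log2 fold change of the tested genes reported here against Ctrl, for KO1 on the left and KO2 on the right, each panel on its own scale, with bars for the SE and filled points for an adjusted p under 0.05. In KO2 the genes run from Lama4 at -7.65 to Col6a3 at 1.91, and KO1 has 15 filled points to the right of 0 and 5 to the left.

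Fibronectin, the cell-binding glycoprotein that assembles into fibrils on the cell surface, was at 222, 293 and 256 FPKM in Ctrl, at 369, 371 and 388 in KO1 and at 120.0, 128 and 133 in KO2. The 3 groups did not overlap, and the KO2 libraries lay below every control while the KO1 libraries lay above. Its log2 fold change was 0.52 ± 0.0946 in KO1 (SE; adjusted p = 0.00173, edgeR) and -0.94 ± 0.0952 in KO2 (SE; adjusted p = 1.08e-05, edgeR). Fn1 made up 22.2% ± 1.62 of the summed matrix FPKM in Ctrl, 26.2% ± 0.184 in KO1 and 12.4% ± 0.151 in KO2 (SD, n = 3). It was the highest matrix gene in Ctrl and KO1, but in KO2 it came after Sparc (148 ± 5.91 FPKM) and overlapped with Lama5 (134 ± 9.07 FPKM). Sparc, a collagen-binding matricellular protein, was at 160, 144 and 151 FPKM in Ctrl, 132, 166 and 152 in KO1 and 142, 149 and 154 in KO2. These ranges overlapped, and the edgeR adjusted p was 0.741 in KO1 and 0.661 in KO2, with log2 fold changes of -0.04 ± 0.0869 and 0.05 ± 0.0870 (SE).

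Among the laminin alpha chains, which carry the integrin-binding end of the molecule, Lama4 showed the widest swing of any tested matrix gene. Lama4, the alpha chain typical of vessel walls and mesenchymal cells (gene 16775, chr10:38965515-39110188, GRCm38), was at 8.72, 9.21 and 9.69 FPKM in Ctrl, at 25.3, 22.4 and 26.9 in KO1 and at 0.03, 0.07 and 0.03 in KO2. Every KO1 library lay above every control, and the KO2 libraries were close to the listing limit, with 5, 13 and 6 counts against 1728 to 1960 in Ctrl. Against Ctrl, the log2 fold change was 1.40 ± 0.105 in KO1 (SE; adjusted p = 2.78e-06, edgeR) and -7.65 ± 0.184 in KO2 (SE; adjusted p = 1.24e-10, edgeR). In counts scaled for depth, KO2 kept 0.49% of the Ctrl level, with an exact 95% interval from 0.314% to 0.73% that covers counting error only. Whether fewer cells carried the transcript or each cell carried less cannot be told apart in bulk RNA, here and for the genes below.

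Lama5, the alpha chain of most adult basement membranes, held the larger share of alpha-chain FPKM throughout. It was at 98.0, 113 and 118 FPKM in Ctrl, 112, 123 and 116 in KO1 and 123, 140.1 and 138 in KO2. KO2 was above Ctrl in all libraries (log2 fold change 0.37 ± 0.0840, SE; adjusted p = 0.00342, edgeR), while KO1 overlapped with it (0.06 ± 0.0839, SE; adjusted p = 0.597, edgeR). The share of Lama4 in the summed alpha-chain FPKM was therefore 7.77% ± 0.342 in Ctrl, 17.6% ± 1.89 in KO1 and 0.032% ± 0.0156 in KO2 (SD, n = 3). Lama3, the alpha chain of the epithelial laminin that anchors hemidesmosomes, was low at 0.183 ± 0.0603 FPKM in Ctrl and 0.09 ± 0.0458 in KO1 (SD, n = 3; edgeR adjusted p = 0.119). In KO2 it had 4 counts in all, each of them in replicate 2, against 192 over the Ctrl libraries, or 2.37% of Ctrl with an exact 95% interval from 0.639% to 6.17%. Its log2 fold change in KO2 was -5.27 ± 0.775 (SE; adjusted p = 0.000212, edgeR). Without replicate 2 the KO2 libraries held no count, and the fitted -8.94 then depends on the prior count and is no bound.

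Lamb3, the beta chain of that epithelial laminin, fell in both lines. Lamb3 was at 1.95, 3.19 and 2.62 FPKM in Ctrl, at 0.70, 1.01 and 0.93 in KO1 and at 0.04, 0.07 and 0 in KO2, in steps without overlap. Its log2 fold change was -1.59 ± 0.288 in KO1 (SE; adjusted p = 0.00186, edgeR) and -6.10 ± 0.441 in KO2 (SE; adjusted p = 1e-06, edgeR), and without KO2 replicate 2 it was -6.88 in KO2. Like Lama3, it was left at traces in KO2, with 5, 8 and 0 counts against 257 to 453 in Ctrl.

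Differences were smaller for the beta and gamma chains of the common laminins. Lamb1 had group means of 130, 146 and 116 FPKM in Ctrl, KO1 and KO2, and passed the test in neither line. Lamc1, the gamma chain shared by most laminins, was at 76.8, 93.7 and 83.4 FPKM in Ctrl, 108, 92.0 and 103 in KO1 and 71.1, 76.98 and 79.8 in KO2. It overlapped with Ctrl in both lines (edgeR adjusted p = 0.0819 in KO1 and 0.487 in KO2), though in KO1 it passed without Ctrl replicate 2 (0.0258) or KO1 replicate 2 (0.0338) and under total count scaling (0.0493). KO2 lay below KO1 by -0.30 ± 0.0906 (SE; adjusted p = 0.0146, edgeR), a call that was lost without KO2 replicate 1 (edgeR adjusted p = 0.0689). Lamb2, the beta chain of vessel, muscle and kidney laminins, was at 16.9, 18.8 and 20.5 FPKM in Ctrl, at 23.1, 28.1 and 26.6 in KO1 and at 18.6, 21.8 and 20.3 in KO2. It rose in KO1 by 0.44 ± 0.0965 (log2, SE; adjusted p = 0.00541, edgeR), where no library overlapped with Ctrl, and its KO2 value was 0.19 ± 0.0965 (SE; adjusted p = 0.123, edgeR). Over all 8 tested laminin genes, 2 rose and 1 fell in KO1, where 15.6% of all tested genes rose and 14.9% fell, and 1 rose and 4 fell in KO2, where 24.6% of all tested genes rose and 29.5% fell.

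**Figure D3:**
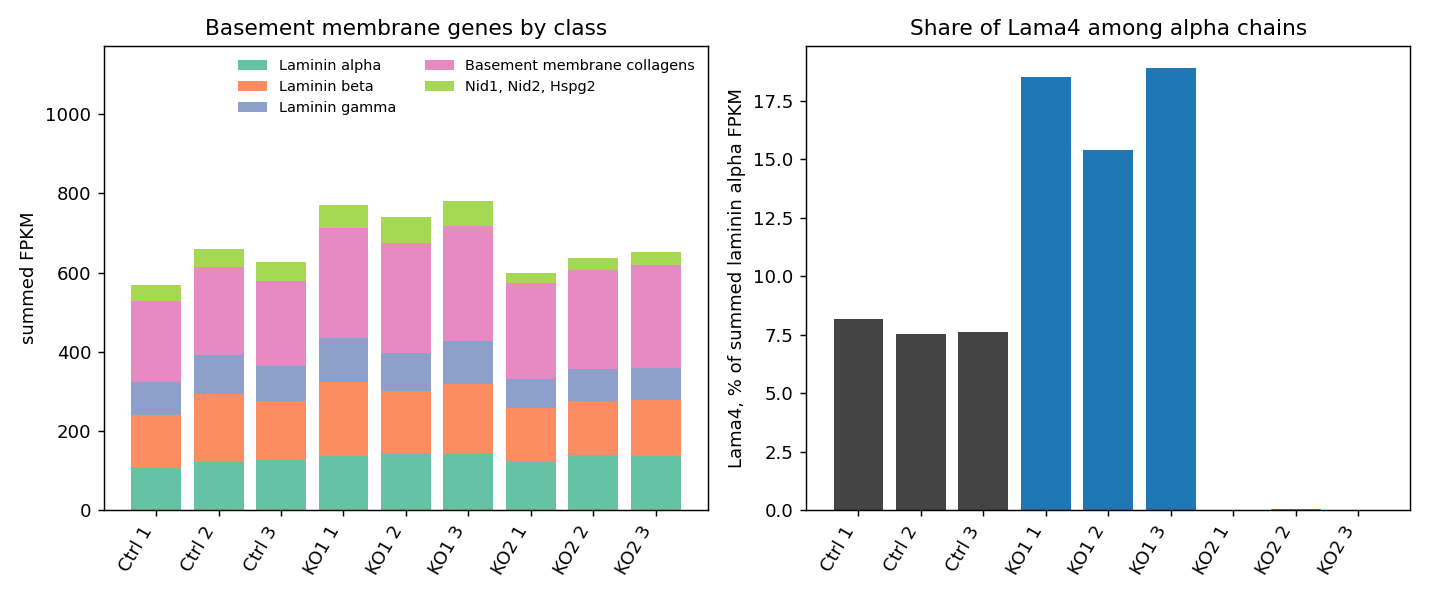
Left, summed FPKM of the laminin alpha, beta and gamma chains, the basement membrane collagens and the linkers Nid1, Nid2 and Hspg2 in each library, stacked from 0. Right, the share of Lama4 in the summed laminin alpha FPKM, which is 7.54% to 8.16% in Ctrl, 15.4% to 18.9% in KO1 and 0.0218% to 0.05% in KO2.

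Of the linkers of the basement membrane, Hspg2 moved in opposite directions in the lines. Hspg2 encodes perlecan, a heparan sulfate proteoglycan that binds laminin, collagen IV and growth factors. It was at 38.1, 43.6 and 45.01 FPKM in Ctrl, at 56.1, 63.1 and 62.6 in KO1 and at 24.2, 28.0 and 30.7 in KO2, and the groups did not overlap. The log2 fold change was 0.49 ± 0.0994 in KO1 (SE; adjusted p = 0.00324, edgeR) and -0.53 ± 0.0995 in KO2 (SE; adjusted p = 0.000958, edgeR). Nid1, which bridges laminin and collagen IV, was low at 1.51 ± 0.217, 2.02 ± 0.381 and 1.16 ± 0.212 FPKM in Ctrl, KO1 and KO2 (SD, n = 3). It passed the test in neither line against Ctrl, and KO2 was below KO1 by -0.70 ± 0.179 (log2, SE; adjusted p = 0.00638, edgeR).

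Col4a1 and Col4a2 encode the chains of the collagen IV found in nearly all basement membranes, and their start sites lie 21 bp apart on chromosome 8 on opposite strands. Col4a1 was at 89.8, 88.7 and 91.1 FPKM in Ctrl, 95.01, 101 and 105 in KO1 and 84.5, 85.2 and 90.4 in KO2. Col4a2 was at 52.1, 54.3 and 54.1 in Ctrl, at 61.9, 62.0 and 65.8 in KO1 and at 43.6, 45.9 and 47.7 in KO2. Both genes had their highest libraries in KO1, but the differences were small. For Col4a2 the log2 fold change was 0.21 ± 0.0621 in KO1 (SE; adjusted p = 0.0235, edgeR, or 0.0533 with only the 2 groups compared) and -0.15 ± 0.0622 in KO2 (SE; adjusted p = 0.0635, edgeR, or 0.00868 under total count scaling). The KO1 call of Col4a2 did not hold when Ctrl replicates 1 or 3 or KO1 replicate 3 were left out. For Col4a1 it was 0.13 ± 0.0628 in KO1 (SE; adjusted p = 0.154, edgeR) and 0.03 ± 0.0628 in KO2 (SE; adjusted p = 0.750, edgeR). The ratio of Col4a1 to Col4a2 FPKM was 1.68 ± 0.0455 in Ctrl, 1.58 ± 0.0462 in KO1 and 1.90 ± 0.0400 in KO2 (SD, n = 3). The first bases of the pair overlap on opposite strands, and the sources used here do not say whether counting used the strand.

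Col4a5 and Col4a6, neighbours on the X chromosome whose start sites lie 1343 bp apart on opposite strands, encode chains of the collagen IV found in kidney, skin and smooth muscle. Col4a5 was at 15.9, 15.4 and 16.5 FPKM in Ctrl, at 33.6, 32.7 and 32.4 in KO1 and at 24.3, 25.8 and 23.1 in KO2. It rose by 1.02 ± 0.0622 in KO1 (log2, SE; adjusted p = 5.69e-07, edgeR) and by 0.69 ± 0.0620 in KO2 (SE; adjusted p = 4.07e-06, edgeR), and KO1 lay above KO2 in every library. Col4a6 was lower, at 1.51 ± 0.317, 2.52 ± 0.214 and 0.783 ± 0.300 FPKM in Ctrl, KO1 and KO2 (SD, n = 3), with 165, 400 and 103 counts in all. Its log2 fold changes rest on the counts, and its mean FPKM changed by other amounts. By counts, Col4a6 rose by 1.31 ± 0.176 in KO1 (log2, SE; adjusted p = 0.000228, edgeR). In KO2 its log2 fold change of -0.49 ± 0.192 (SE) passed the test narrowly (edgeR adjusted p = 0.0496), with an adjusted p of 0.108 in DESeq2, and the call was lost when any of 8 of the 9 libraries was left out. The ratio of Col4a5 to Col4a6 FPKM was 10.9 ± 2.49 in Ctrl, 13.1 ± 1.39 in KO1 and 34.9 ± 14.8 in KO2 (SD, n = 3). Its mean was higher in KO1 than in Ctrl, although by counts Col4a6 rose more than Col4a5 there. The direction in KO1 and the size in KO2 thus depend on the measure, for a cause that was not tested.

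The 250 bases before the start of each of these neighbours are shown because the pair rose together in KO1 and parted in KO2 (RefSeq, GRCm38.p6, each on the strand of its gene, 5′ to 3′). Col4a5 is from chrX:141475169-141475418 on the plus strand and Col4a6 from chrX:141474077-141474326 on the minus strand, and capitals mark GGGCGG or its reverse complement (an SP1-type box) and CCAAT or its reverse complement.
Col4a5: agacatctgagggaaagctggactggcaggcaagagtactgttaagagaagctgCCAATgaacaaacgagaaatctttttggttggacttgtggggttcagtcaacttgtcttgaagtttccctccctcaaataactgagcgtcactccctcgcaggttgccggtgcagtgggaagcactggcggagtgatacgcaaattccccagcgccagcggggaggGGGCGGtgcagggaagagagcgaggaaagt
Col4a6: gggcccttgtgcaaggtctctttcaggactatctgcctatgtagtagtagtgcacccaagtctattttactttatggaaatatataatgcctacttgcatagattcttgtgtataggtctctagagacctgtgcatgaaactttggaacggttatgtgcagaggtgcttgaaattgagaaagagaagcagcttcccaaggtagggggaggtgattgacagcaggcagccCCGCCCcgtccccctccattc
The window of Col4a5 held 10 CG dinucleotides, 1 GGGCGG and 1 CCAAT, and that of Col4a6 held 3 CG and 1 GGGCGG. Over 27025 promoters of the same table and length, the median was 6 CG dinucleotides, 33.0% held GGGCGG and 34.5% held CCAAT on either strand. A promoter was in the table for 40 of the 57 matrix genes, and their median was 8.5 CG dinucleotides, with GGGCGG in 23 and CCAAT in 12. A match describes the letters and is not evidence of binding.

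Col18a1 and Col15a1 encode the basement membrane collagens that carry endostatin-type ends. Col18a1 was at 46.8, 61.8 and 53.2 FPKM in Ctrl, at 85.0, 78.6 and 84.5 in KO1 and at 89.1, 92.3 and 97.1 in KO2. It rose in both lines without overlap, by 0.59 ± 0.0952 in KO1 (log2, SE; adjusted p = 0.000813, edgeR) and by 0.86 ± 0.0955 in KO2 (SE; adjusted p = 2.16e-05, edgeR). Col15a1 was far lower, at 0.197 ± 0.0569 FPKM in Ctrl and 0.0333 ± 0.0153 in KO2 (SD, n = 3), a log2 fold change of -2.41 ± 0.390 (SE; adjusted p = 0.000366, edgeR). Col7a1, the anchoring fibril collagen that ties the epidermal basement membrane to the tissue beneath, was at 1.97, 2.00 and 2.34 FPKM in Ctrl, 3.81, 3.70 and 3.92 in KO1 and 4.01, 4.49 and 3.46 in KO2. It rose in both lines, by 0.86 ± 0.0998 (log2, SE; adjusted p = 8.18e-05, edgeR) and 1.01 ± 0.1 (SE; adjusted p = 8.6e-06, edgeR), and KO2 minus KO1 was 0.15 ± 0.0979 (SE; adjusted p = 0.204, edgeR).

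Of all tested collagens, the collagen VI chain Col6a2 fell most in KO2. Col6a1, a chain that every collagen VI assembly needs, was at 34.1, 36.7 and 38.7 FPKM in Ctrl, at 43.9, 50.9 and 50.5 in KO1 and at 14.3, 14.97 and 14.8 in KO2. Its partner Col6a2 was at 4.41, 5.36 and 4.93 in Ctrl, at 3.90, 3.46 and 4.12 in KO1 and at 0.03, 0.23 and 0.06 in KO2. Both genes were lowest in KO2, where the groups lay far apart. For Col6a1 the log2 fold change was 0.38 ± 0.0752 in KO1 (SE; adjusted p = 0.00294, edgeR) and -1.24 ± 0.0770 in KO2 (SE; adjusted p = 1.97e-07, edgeR). For Col6a2 it was -0.39 ± 0.243 in KO1 (SE; adjusted p = 0.254, edgeR) and -5.47 ± 0.358 in KO2 (SE; adjusted p = 6.96e-07, edgeR). Most of what remained of Col6a2 in KO2 was in replicate 2, with 26 counts against 4 and 7, and without that library the KO2 value was -6.63 and the KO1 difference passed the test (edgeR adjusted p = 0.0309). The ratio of Col6a1 to Col6a2 FPKM was 7.48 ± 0.546 in Ctrl and 12.7 ± 1.78 in KO1 (SD, n = 3), and ran from 65.1 to 478 over the KO2 libraries.

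Col6a2 (chr10:76595756-76623630) and Col6a1 (chr10:76708792-76726044) are neighbours on chromosome 10 of GRCm38, in a stretch that ends with Col18a1 (chr10:77052178-77166530). Of the 5 tested genes in that stretch, Pcbp3 and Slc19a1 lie between Col6a1 and Col18a1. In KO2, Col6a2, Col6a1, Pcbp3 (-0.45) and Slc19a1 (-0.58) fell, by their log2 fold changes, and Col18a1 rose. In KO1, Col6a1 and Col18a1 rose and the other 3 genes passed in neither direction. The 250 bases before the start of each collagen VI gene are shown because both fell in KO2 to such different extents (RefSeq, GRCm38.p6, minus strand, 5′ to 3′). Capitals mark a GGGCGG reverse complement in Col6a2 (chr10:76623631-76623880) and the AP-1-type letters TGANTCA in Col6a1 (chr10:76726045-76726294).
Col6a2: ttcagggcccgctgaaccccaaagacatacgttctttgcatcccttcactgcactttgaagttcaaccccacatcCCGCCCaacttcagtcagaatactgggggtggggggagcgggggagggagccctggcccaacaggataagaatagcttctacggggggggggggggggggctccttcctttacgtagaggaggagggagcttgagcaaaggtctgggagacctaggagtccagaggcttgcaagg
Col6a1: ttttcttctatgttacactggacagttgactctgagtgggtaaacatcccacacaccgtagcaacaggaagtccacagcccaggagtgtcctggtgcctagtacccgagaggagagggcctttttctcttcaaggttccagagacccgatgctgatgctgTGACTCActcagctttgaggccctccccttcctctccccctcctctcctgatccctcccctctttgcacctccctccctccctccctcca
The Col6a2 window held 6 CG dinucleotides and 1 GGGCGG, the Col6a1 window held 3 CG and 1 TGANTCA. Of all 27025 windows 6.85% held TGANTCA, and among the 40 matrix windows Col6a1 was the only one.

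Col6a3, the long chain that completes the classical collagen VI, was barely expressed. It had 0, 4 and 3 counts in Ctrl, 27, 46 and 33 in KO1, and 0, 24 and 0 in KO2. KO1 lay above Ctrl (log2 fold change 3.88 ± 1.17, SE; adjusted p = 0.0321, edgeR), but that call was lost in DESeq2 (adjusted p = 0.116) and without any Ctrl library or replicate 2 or 3 of KO1. In KO2 all the counts were in replicate 2, and the value of 1.91 ± 1.41 (SE; adjusted p = 0.279, edgeR) turned to -4.24, fitted on libraries with no count, when it was left out.

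Fibrillar collagen was scarce. Col5a1, which starts collagen fibrils, was the only fibrillar chain above 10 FPKM, with means of 30.6 ± 2.70, 29.8 ± 1.39 and 31.2 ± 2.04 FPKM in Ctrl, KO1 and KO2 (SD, n = 3), and it passed in neither line. Its relative Col5a3, which is found in muscle and fat, was lower than in Ctrl in KO1 alone. It was at 1.30 ± 0.133 FPKM in Ctrl, 0.0933 ± 0.0231 in KO1 and 1.22 ± 0.125 in KO2 (SD, n = 3). The log2 fold change was -3.79 ± 0.175 in KO1 (SE; adjusted p = 6.18e-08, edgeR) and -0.01 ± 0.136 in KO2 (SE; adjusted p = 0.959, edgeR), and KO2 minus KO1 was 3.78 ± 0.176 (SE; adjusted p = 1.74e-08, edgeR). KO1 kept 7.19% of the Ctrl level, with an exact 95% interval from 5.38% to 9.44%.

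Col1a1 and Col1a2 encode the chains of type I collagen, the main fibre of connective tissue, and Col3a1 encodes type III. Col1a1 was at 0.36, 0.33 and 0.46 FPKM in Ctrl, at 0.05, 0.15 and 0.11 in KO1 and at 0.04, 0.21 and 0.02 in KO2, so that no library of either line reached the controls. Against Ctrl, the fold change on the log2 scale was -1.98 ± 0.642 in KO1 (SE; adjusted p = 0.0408, edgeR) and -2.05 ± 0.654 in KO2 (SE; adjusted p = 0.0230, edgeR). The KO1 call was lost without any 1 of the 6 Ctrl and KO1 libraries, and the KO2 call was lost without Ctrl replicate 3, KO2 replicate 1 or KO2 replicate 3. Without KO2 replicate 2 the KO2 value was -3.72 (edgeR adjusted p = 0.000334). Col1a2 had 1, 0 and 0 counts in Ctrl, 0, 2 and 4 in KO1 and 0, 49 and 1 in KO2. Col3a1 had 0 counts in each Ctrl library, 0, 2 and 1 in KO1 and 1, 66 and 2 in KO2. The partner chain of Col1a1 was thus close to 0 in every library but one, the one that also held the lung and blood genes.

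**Figure D4:**
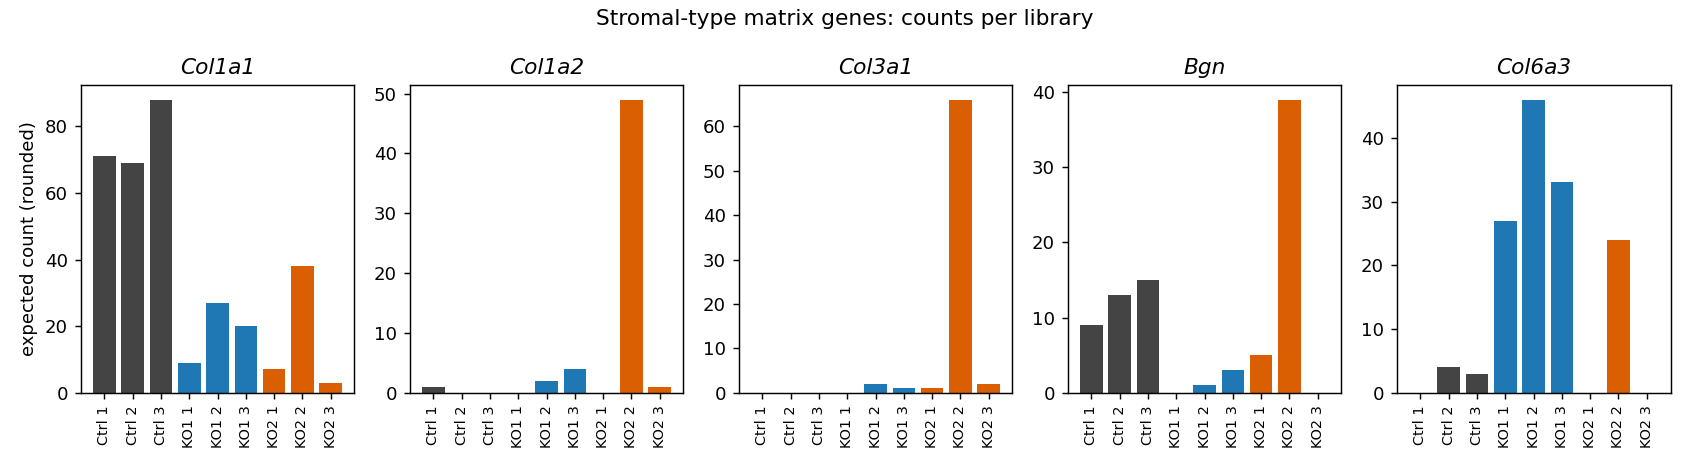
Rounded expected counts per library of Col1a1, Col1a2, Col3a1, Bgn and Col6a3, each panel with its own axis from 0 (grey Ctrl, blue KO1, orange KO2). KO2 replicate 2 holds 49 counts of Col1a2 and 66 of Col3a1, while no other library exceeds 4 and 2.

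The small leucine-rich proteoglycans bind collagen fibrils and hold growth factors, and decorin was the only one above traces. Dcn was at 7.99, 8.16 and 7.55 FPKM in Ctrl, at 3.34, 3.30 and 3.46 in KO1 and at 0.09, 0.05 and 0.13 in KO2. The 3 groups formed separate steps, with 448 to 532 counts in Ctrl and 3 to 7 in KO2. For Dcn the log2 fold change was -1.26 ± 0.121 in KO1 (SE; adjusted p = 2.03e-05, edgeR) and -6.39 ± 0.192 in KO2 (SE; adjusted p = 5.35e-10, edgeR), where 1.17% of the Ctrl level remained (exact 95% interval 0.652% to 1.93%). Bgn, or biglycan, was at 0.11, 0.15 and 0.20 FPKM in Ctrl, 0, 0.01 and 0.04 in KO1 and 0.07, 0.54 and 0 in KO2. Its KO1 libraries lay below every control at a log2 fold change of -3.06 ± 1.43 (SE; adjusted p = 0.136, edgeR), which passed only without KO2 replicate 2 (0.0222) or KO2 replicate 3 (0.0492). In KO2 its value was 0.44 ± 0.953 (SE; adjusted p = 0.721, edgeR), and -2.08 without replicate 2 (edgeR adjusted p = 0.0765). Lum had 1 count in KO1 replicate 1, 1 in KO2 replicate 1 and none elsewhere.

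Markers of fibroblasts, contractile cells and epithelium were counted beside the matrix genes. Over the fibroblast markers, which include Dcn, Col1a1, Col1a2, Col3a1 and Lum, 5 of 11 were tested. Of these, 1 rose and 2 fell in KO1, where 15.6% of all tested genes rose and 14.9% fell. In KO2, 1 rose and 4 fell, where 24.6% of all tested genes rose and 29.5% fell. The 2 that fell in KO1 were Dcn and Col1a1 themselves. Pi16 rose in both lines (log2 fold changes 1.84 and 2.15), and Pdgfra and Pdgfrb fell in KO2 alone (-1.0 and -0.77). The summed level of the fibroblast markers was 56.1 to 57.9 FPKM in Ctrl, 49.5 to 52.6 in KO1 and 26.4 to 27.1 in KO2. Most of it came from Pdgfra, with means of 43.3, 40.4 and 20.5 FPKM. Of the pericyte and smooth muscle markers 4 of 6 were tested. Of these, 1 rose and 3 fell in KO1 and all 4 fell in KO2, against the same shares of all tested genes. The sum of the 6 was 4.28 to 5.24 FPKM in Ctrl, 1.45 to 2.00 in KO1 and 0.14 to 0.72 in KO2. Acta2, the smooth muscle actin, had 170 to 210 counts in Ctrl, 18 to 29 in KO1 and 1 to 26 in KO2, while Myh11 and Cnn1, which define mature smooth muscle, had at most 12 and 5 counts. The whole list had 14, 56 and 8 counts in KO2 replicates 1, 2 and 3. The 26 counts of Acta2 were thus in replicate 2, the library with the lung and blood genes. Of the 8 epithelial markers 5 were tested, and their sum was 489 to 503 FPKM in Ctrl, 832 to 975 in KO1 and 1343 to 1448 in KO2. Krt8 and Krt18 rose in both lines, by log2 fold changes of 0.77 and 1.5 for Krt8 and 0.94 and 1.79 for Krt18, Cldn4 rose in KO2 (2.72; edgeR adjusted p = 0.00612), and Krt7 fell in KO2 (-5.97; edgeR adjusted p = 3.5e-11). The part of these genes in the matrix results was not tested.

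Among the fibril-associated and network collagens, Col8a1 and Col16a1 were the only ones above 10 FPKM. Col8a1, a short-chain collagen of vessel and corneal sheets, was at 25.4, 21.8 and 23.3 FPKM in Ctrl, 27.4, 31.5 and 28.4 in KO1 and 36.02, 40.4 and 40.8 in KO2. It rose in KO2 by 0.81 ± 0.0855 (log2, SE; adjusted p = 1.44e-05, edgeR). The rise in KO1 was 0.28 ± 0.0852 (SE; adjusted p = 0.0289, edgeR), and it lost the call without replicate 2 or 3 of either Ctrl or KO1. Col16a1, a fibril-associated collagen, was at 19.2, 19.8 and 22.3 FPKM in Ctrl, 22.4, 23.3 and 22.8 in KO1 and 24.4, 27.8 and 23.9 in KO2, and it rose in KO2 by 0.39 ± 0.0770 (log2, SE; adjusted p = 0.00142, edgeR).

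Several minor collagens of the same classes rose in KO1. Col14a1, which coats fibrils, was at 0.297 ± 0.0252 FPKM in Ctrl and 0.707 ± 0.0493 in KO1 (SD, n = 3), and its log2 value was up by 1.21 (edgeR adjusted p = 0.000133). Col20a1 rose by 1.36 (edgeR adjusted p = 0.00942), and Col9a3, a cartilage collagen chain, rose by 0.94 (edgeR adjusted p = 0.0416), a call lost without any 1 of 7 libraries and in DESeq2 (adjusted p = 0.0602). In KO2 these 3 genes had log2 fold changes of 0.11, 0.25 and 0.01 and none passed. Col12a1, which binds to type I fibrils, fell in both lines, from 0.207 ± 0.0289 FPKM in Ctrl to 0.0367 ± 0.0153 in KO1 and 0.01 ± 0.01 in KO2 (SD, n = 3), with log2 fold changes of -2.61 (edgeR adjusted p = 0.00205) and -4.35 (edgeR adjusted p = 0.000121; -5.99 without KO2 replicate 2). Col24a1, a minor fibrillar chain, rose in KO2 by 0.98 (edgeR adjusted p = 0.000635) from 0.323 ± 0.0462 to 0.607 ± 0.0702 FPKM (SD, n = 3). Col11a2 and the transmembrane Col17a1 stayed below 0.3 FPKM and passed in neither line.

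The lines were compared with each other directly. In KO2 against KO1, 6 matrix genes were higher and 19 lower, where 25.5% of all tested genes were higher and 29.5% lower, together 55.0%. The median log2 difference of the 36 was -0.37, against -0.02 over all genes. Under total count scaling, which moves the median of all genes from -0.021 to -0.127, 3 were higher and 23 lower. Without KO2 replicate 2 it was 4 and 23, in a fit that chose its tested genes anew and could include genes outside the 36. The lower genes were led by Lama4 (-9.06 ± 0.183, SE), Dcn (-5.13 ± 0.200, SE), Col6a2 (-5.08 ± 0.360, SE), Lamb3 (-4.52 ± 0.470, SE) and Lama3 (-4.19 ± 0.835, SE). Without KO2 replicate 2, Col6a2 was at -6.23 and Lamb3 at -5.29, and Lama3 then had no count left in KO2. Fn1 was lower by -1.45 ± 0.0963 (SE), Col6a1 by -1.61 ± 0.0776 (SE) and Hspg2 by -1.02 ± 0.1 (SE). Apart from Col5a3, the higher genes differed little: Col24a1 (0.70), Col8a1 (0.53), Lama5 (0.30), Col18a1 (0.27) and Col16a1 (0.26). Of these, Lama5, Col18a1 and Col16a1 lost the call under total count scaling.

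Genes that modify collagen, bind matrix or belong to it by other names were counted from lists written for this purpose. Of 39 genes for enzymes and chaperones of collagen, 34 were listed and 27 tested. In KO1, 7 rose and 5 fell (25.9% and 18.5%, against 15.6% and 14.9% of all tested genes). In KO2, 8 rose and 9 fell (29.6% and 33.3%, against 24.6% and 29.5%). P3h2, a prolyl hydroxylase that acts on basement membrane collagens, was at 17.3, 16.5 and 17.7 FPKM in Ctrl, 45.1, 41.7 and 49.9 in KO1 and 0.31, 0.35 and 0.39 in KO2. Its groups did not overlap and came in the same order as those of Lama4, with log2 fold changes of 1.35 in KO1 (edgeR adjusted p = 5.69e-07) and -5.83 in KO2 (edgeR adjusted p = 3.56e-11). The collagen crosslinking gene Loxl3 rose by 0.50 in KO1 (edgeR adjusted p = 0.000813) and 1.87 in KO2 (edgeR adjusted p = 1.38e-08). Bmp1, the protease that trims procollagen, fell by 0.30 in KO1 (edgeR adjusted p = 0.00554) and rose by 0.66 in KO2 (edgeR adjusted p = 1.07e-05). Pcolce, which assists it, rose in KO2 by 0.85 (edgeR adjusted p = 1.72e-05). Plod2, a lysyl hydroxylase of collagen, fell in KO2 from a mean of 43.0 to 23.2 FPKM (edgeR adjusted p = 0.0270).

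Of 31 matrix receptor genes, 30 were listed and 24 tested. In KO1, 7 rose and 6 fell (29.2% and 25.0%, against 15.6% and 14.9% of all tested genes). In KO2, 8 rose and 8 fell (33.3% each, against 24.6% and 29.5%). Itga2, a collagen-binding integrin chain, fell from a mean of 14.0 FPKM to 4.12 in KO1 (edgeR adjusted p = 0.000177) and 2.49 in KO2 (edgeR adjusted p = 1.12e-05). Itgb3, part of an integrin that binds fibronectin and vitronectin, fell from 31.2 FPKM to 7.28 (edgeR adjusted p = 3.74e-05) and 5.81 (edgeR adjusted p = 7.42e-06). Itga7, a laminin receptor chain, fell from 6.90 FPKM to 4.64 in KO1 (edgeR adjusted p = 0.00123) and to 0.80 in KO2 (edgeR adjusted p = 1.07e-08). Itgb4, the integrin chain that binds the epithelial laminin in hemidesmosomes, went the other way, from 6.92 FPKM to 9.62 (edgeR adjusted p = 0.00151) and 21.4 (edgeR adjusted p = 2.32e-08). Its ligand chains Lama3 and Lamb3 were at their lowest in KO2, where Itgb4 was highest. Mrc2, a receptor that takes up collagen fragments, rose from 0.20 FPKM to 1.17 and 2.55 (edgeR adjusted p = 4.24e-07 and 4.69e-09).

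Of 73 other matrix glycoprotein and proteoglycan genes, 64 were listed and 33 tested. In KO1, 10 rose and 6 fell (30.3% and 18.2%, against 15.6% and 14.9% of all tested genes). In KO2, 11 rose and 14 fell (33.3% and 42.4%, against 24.6% and 29.5%). Prelp, a leucine-rich proteoglycan that binds perlecan and collagen, was at 1.24, 1.07 and 1.18 FPKM in Ctrl, 1.08, 1.96 and 1.76 in KO1, and only 0.01, 0.02 and 0.01 in KO2, with 1, 2 and 1 counts (log2 fold change -6.39; edgeR adjusted p = 1.68e-07). Tgfbi, an integrin-binding protein induced by TGF-beta, rose in KO1 from 0.577 to 4.17 FPKM (edgeR adjusted p = 3.58e-06). Ctgf, a matricellular factor, rose in KO1 by 0.55 (log2; edgeR adjusted p = 0.00966) and was at -2.22 in KO2 (edgeR adjusted p = 5.36e-07). Thbs3, a pentameric thrombospondin, fell in both, from 9.12 to 5.89 and 1.63 FPKM (edgeR adjusted p = 7.55e-05 and 1.61e-09). Npnt (nephronectin) and Ntn1 (netrin), which belong to basement membranes, rose in KO2 from 15.3 to 43.5 and from 4.08 to 12.4 FPKM (edgeR adjusted p = 3.56e-09 and 2.24e-08).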

How the data were processed

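RNA of 9 libraries (3 each of Ctrl, KO1 and KO2, grouped by title) was isolated with a Maxwell kit and sequenced as paired-end 100 bp reads on BGISEQ-500, per the labels' protocols. HISAT, RSEM, mm10 and GRCm38 are named in the submitters' processing notes, without versions. The deposited tables give an expected count per gene, not normalised, and FPKM, in which the authors corrected for transcript length and depth. Expected counts were rounded to whole numbers (between 74.7% and 75.8% of them were whole). The test was the robust quasi-likelihood F test of edgeR 4.0.16 (R 4.3.3) over all 9 libraries, after filterByExpr on the groups and TMM scaling, with 6 residual degrees of freedom; adjustment was by Benjamini-Hochberg over 13682 genes and calls were made under 0.05. Each SE was obtained as the absolute log2 fold change divided by the root of F, and is approximate. Depth was 30655924 to 35406395 counts, and no library was a repeat of another in its group (chi-square per gene of replicate pairs at least 8.27).

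Values in every library are given for called matrix genes with a mean of at least 3 FPKM in any group, and for Col1a1, Col1a2, Col3a1, Col4a1, Col4a2, Fn1, Lamb3, Sparc, Dcn, Bgn and Lum. From each list of other genes, those named were taken from called genes with a mean of at least 1 FPKM. They are among the 4 with the largest change per comparison and direction, but not all of these are named. Mia2 and Ctage5, which share a locus, were passed over, and P4ha3, Itga10, Sdc3, Papln and Ltbp3 are among the others left out. The values of 1 tested gene are not reported here. The rule for the matrix genes uses symbols alone, but it, the lists and the tests were set with earlier results of these data known. The 20 alternatives were 2 other scalings, 2 other filters, DESeq2 1.42.0, voom (limma 3.58.1), limma on log2 FPKM with a pseudocount of 1 (also without a filter) or 0.1, fits of just the groups in question, the replicate number as a block, and leaving out each library. Percentages of a control level use TMM-scaled counts with an exact conditional binomial interval. Promoter windows are the 250 bases before the most upstream start in the RefSeq table, searched on both strands. The fits across genes were tested on simulated data.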

Additional observations from a re-analysis of the deposited data

Results flagged for a closer look

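For 25 of the 36 tested matrix genes, the response of KO2 differed from that of KO1 by a direct test of the lines against each other (edgeR adjusted p under 0.05), where 55.0% of all tested genes did. The values of 24 are given. Among the laminin and linker genes, KO2 minus KO1 on the log2 scale was -9.06 for Lama4, -4.52 for Lamb3, -4.19 for Lama3, -1.02 for Hspg2, -0.70 for Nid1, -0.30 for Lamc1, -0.25 for Lamb2 and 0.30 for Lama5. For Fn1 it was -1.45 and for Dcn -5.13. Of the basement membrane collagens, Col4a6 was at -1.80, Col15a1 at -2.02, Col4a2 at -0.36, Col4a5 at -0.33 and Col18a1 at 0.27. The collagen VI chains Col6a2 and Col6a1 were at -5.08 and -1.61. The remaining collagens were Col5a3 at 3.78, Col24a1 at 0.70, Col8a1 at 0.53, Col16a1 at 0.26, Col9a3 at -0.92, Col14a1 at -1.09 and Col20a1 at -1.11. Lamb2 lost this call in edgeR without any 1 of 6 libraries (Ctrl replicates 2 and 3, KO1 replicates 2 and 3, KO2 replicates 1 and 3), Col9a3 without any KO1 library or KO2 replicate 1 or 3, and Col20a1 and Lamc1 without KO2 replicate 1. Col18a1 lost it without KO1 replicate 3, KO2 replicate 2 or KO2 replicate 3, and Col16a1 without KO2 replicate 2.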

How the results depend on the processing

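No called matrix gene changed direction in any of the 20 alternatives. Of the called genes, 5 of 20 in KO1, 2 of 20 in KO2 and 8 of 25 between the lines lost the call in at least 1 of them, and 4 of 16, 1 of 16 and 7 of 11 uncalled genes gained one. The genes higher in KO1 numbered 15 (11 to 16 over all alternatives) and those lower 5 (4 to 7). In KO2 they numbered 7 (7 to 8) and 13 (11 to 14), and in KO2 against KO1 they numbered 6 (3 to 7) and 19 (17 to 23). Alternatives that left out libraries or changed the filter chose their tested genes anew, so these ranges can include matrix genes not tested above. The 6 fell to 3 under total count scaling and in the 3 fits of limma on log2 FPKM, for a cause that was not tested. Libraries with the same replicate number had correlations of their deviations from -0.34 to 0.05, not every library correlated best with its own number, and the numbers were not taken to pair the samples. With a replicate block the counts were 13, 5, 7, 12, 5 and 19.

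Signs turned only for values that were not called in the fit reported above. Under total count scaling, KO1 against Ctrl was 0.02 for Col11a2, KO2 against Ctrl was -0.05 for Col4a1, -0.06 for Col9a3 and -0.03 for Sparc, and KO2 against KO1 was -0.02 for Col11a2 and -0.01 for Sparc. The fits of limma on log2 FPKM gave 0.01 for Col11a2 in KO1, -0.01 for Col11a2, -0.05 for Col4a1, -0.06 and -0.01 for Col9a3, -0.03 for Sparc and -0.18 for Bgn in KO2, and -0.03 and -0.01 for Col11a2 and -0.01 for Sparc between the lines. With limma-voom, Bgn was at -1.21 and Col9a3 at -0.05 in KO2, and with the replicate block they were at -0.01 and -0.02. Col5a3 in KO2 was at 0.02 without a filter and 0.01 with only the 2 groups compared. With single libraries left out, KO1 values ran from -0.13 to 0.09 for Col11a2, -0.03 to 0.59 for Col17a1, -0.01 to 0.11 for Lama5 and -0.13 to 0.04 for Sparc. KO2 values ran from -2.08 to 1.02 for Bgn, -0.02 to 0.17 for Col11a2, -0.01 to 0.05 for Col4a1, -0.06 to 0.07 for Col5a3, -4.24 to 2.50 for Col6a3, -0.41 to 0.24 for Col9a3, -0.16 to 0.04 for Lamb1 and -0.14 to 0.01 for Lamc1. Between the lines they ran from -0.01 to 0.23 for Col11a2 and from -1.74 to 0.42 for Col1a1, which passed at its lowest value, without KO2 replicate 2 (edgeR adjusted p = 0.0311). Bgn, Col6a3 and Col1a1 had at most 39, 46 and 88 counts in any library.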

Other observations

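Outside the collagens and laminins, Spp1 (osteopontin, a secreted integrin-binding phosphoprotein) was the highest gene by its Ctrl mean in the list of other matrix glycoproteins, and it was picked here after its values were seen. It was at 2010.24, 2310.07 and 2043.15 FPKM in Ctrl, 2483, 2268 and 2166 in KO1 and 3581, 3299 and 3447 in KO2. The KO2 libraries lay above all others, with a log2 fold change of 0.78 ± 0.08 (SE; adjusted p = 1.23e-05, edgeR), and KO1 overlapped with Ctrl (0.09 ± 0.0796, SE; adjusted p = 0.431, edgeR). Serpinh1, the chaperone that collagen needs to fold, was at 203 to 243 FPKM in Ctrl, 198 to 215 in KO1 and 183 to 208 in KO2, and passed in neither line (edgeR adjusted p = 0.313 and 0.356).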
